A study of Danio rerio with 4 samples.

Results

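The genes that build fatty acids, store them as triglyceride in lipid droplets and release them again were examined in liver RNA of zebrafish kept with or without cadmium. They were taken by symbol from the annotation of the array: every probe whose gene belongs to the acetyl-CoA carboxylases, ATP citrate lyases, fatty acid synthases, fatty acid elongases and desaturases, the acyltransferases and phosphatases of triglyceride assembly, the perilipin and CIDE droplet proteins, the patatin-like lipases, lysophosphatidylcholine acyltransferases, me1, mgll, srebf1 and the mlxip family. This gave 56 genes on 89 probes, of 15554 named genes on 23717 probes. Of the 56, 4 (gpatch1, gpatch4, gpatch8 and gpatch11) share only the letters of their symbol with the glycerol-phosphate acyltransferases. They encode G-patch domain proteins with no role in lipid metabolism, so some counts are also given for the other 52. No probe carried the symbols srebf1, mlxipl, fasn, plin3 or pnpla2, and these genes were not analysed here.

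Liver makes fatty acids from acetyl-CoA. Acetyl-CoA carboxylase forms malonyl-CoA, fatty acid synthase extends it to palmitate, and elongases and desaturases lengthen the chain and add double bonds. Acyltransferases join the chains to glycerol phosphate, lipins remove the phosphate, and diacylglycerol acyltransferases add the last chain. The triglyceride is kept in droplets under a coat of perilipins or leaves the cell in lipoproteins, and lipases release it again.

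Expression was measured on 4 two-colour oligonucleotide arrays. They compared 2 control liver RNAs at 0 µM cadmium (replicates 2 and 3) with 2 liver RNAs at 5 µM cadmium (replicates 1 and 2), all from day 4. The series was set up to test a custom array. The sources used here do not give strain, sex, age or the number of fish behind an RNA, and one label writes degrees C beside the same dose numbers. Every RNA was hybridised with Cy5 on 1 array and with Cy3 on another. Array 1 held control replicate 2 and cadmium replicate 1, array 2 cadmium replicate 1 and control replicate 3, array 3 control replicate 3 and cadmium replicate 2, and array 4 cadmium replicate 2 and control replicate 2. All ratios below are log2 values turned to cadmium over control. The direction of the deposited ratio is not stated, and Cy5 over Cy3 was taken as the likely one, so under the other reading every sign would turn. Across the 15554 genes the standard deviation of the ratios was 0.212 and 0.249 on the arrays of cadmium replicate 1 and 0.421 and 0.391 on those of cadmium replicate 2. Ratios give no absolute level, so the presence of hepatocyte genes could not be checked. The 18 measured hepatocyte markers had medians of 0.09, 0.04, -0.02 and -0.11 in control replicates 2 and 3 and cadmium replicates 1 and 2, each against the average over the RNAs. Differences of cadmium minus control ran from -2.82 to 0.345 over the markers. Of the 18, only 1 (5.56%) differed by at least 0.5 in size, beside 3.26% of all genes. At an unadjusted p under 0.05 in limma, 2 of the 18 (11.1%) were lower, against 0.945% of all genes, and 0 were higher, against 1.07%.

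In limma, 0 of the 56 had an adjusted p under 0.05 (Benjamini-Hochberg over all genes), as had 0% of all genes. At an unadjusted p under 0.05, 1 lay on the higher side in cadmium (acaca), against 1.07% of all genes, and 2 on the lower side (plin2 and agpat3), against 0.945%. The log2 difference was above 0 for 25 of the 56 (56.9% of all genes) and its median was -0.03, beside 0.02 over all genes. Differences of at least 0.5 in size were found for 8 of the 56, 14.3% of them, against 3.26% of all genes. They were plin2, lpin1a, agpat4 and dgat1a on the lower side, and acaca, lpcat4, elovl6l and elovl7a on the higher. The ratios of the 56 also spread more than those of all genes on every array, with standard deviations of 0.401, 0.335, 0.698 and 0.581. The median gap between the control RNAs was wider too, at 0.145 beside 0.106 over all genes. In 12 genes both cadmium RNAs lay below both control RNAs (10.2% of all genes), and in 4 both lay above (11.7%), or 12 and 3 of the 52. All 4 arrays were on the lower side for 9 genes (6.90% of all genes) and on the higher side for 5 (7.99%), or 8 and 4 of the 52. The labels call the replicates biological without saying whether each was 1 fish or a pool. A p-value here therefore reflects how far the hybridised RNAs varied, which may differ from the spread among fish. Array noise enters the p-value too, because the RNA-level values were solved from the same 4 arrays. It adds more to gaps within a group than to the group difference, which tends to raise the p-values. The 0 adjusted calls were made under this limit.

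**Figure D1:**
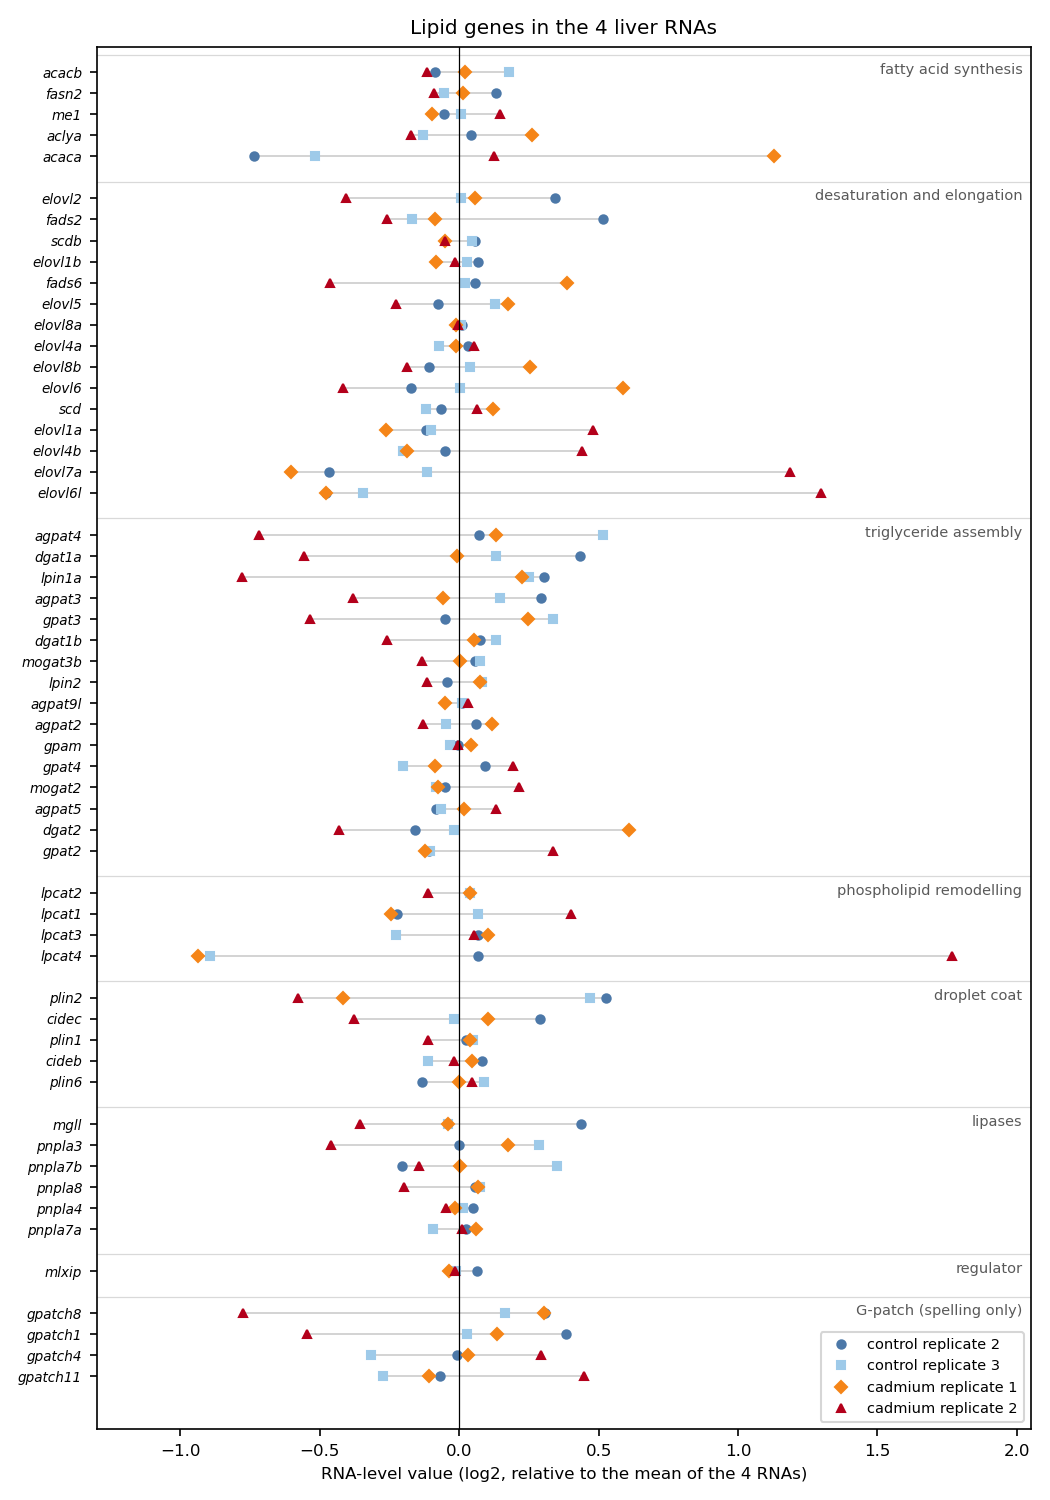
Log2 values of the 56 genes in the 4 RNAs, as distance from the gene's average over the RNAs (horizontal axis), grouped by role; circles and squares are control replicates 2 and 3, diamonds and triangles cadmium replicates 1 and 2, and a grey line spans the 4 values. For plin2 both cadmium RNAs lie left of both controls, for acaca both lie right, and for lpcat4, elovl6l and elovl7a the triangle of cadmium replicate 2 stands alone on the right.

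The member with the largest moderated t encodes a droplet coat protein. For plin2 (Entrez Gene 794841), whose perilipin covers lipid droplets in hepatocytes and many other cells, the ratios were -0.99, -0.84, -1.10 and -1.06 on arrays 1 to 4. The 4 values were close together, and both cadmium RNAs (-0.42 and -0.58) lay well below both controls (0.53 and 0.47). The log2 difference was -0.997 ± 0.10 (SE, 2 RNAs per group), which is 2.00-fold lower in cadmium. Its moderated t ranked 7 by size among the 15554 genes (unadjusted p = 0.000658, adjusted p = 0.9998 in limma), and without 1 RNA at a time the difference stayed between -1.08 and -0.92. plin2 rests on 1 probe, and the annotation used here lists no sequence record for it. In bulk RNA, fewer cells of a type and less RNA per cell cannot be told apart.

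For the other 4 genes of the droplet coat the cadmium and control RNAs overlapped, as they did for most genes. Both cadmium RNAs lay above both controls in 11.7% of all genes and below both in 10.2%. For cidec, which promotes fusion of droplets in mammals, the ratios were -0.16, 0.10, -0.33 and -0.69, with the lowest value in cadmium replicate 2 and the highest in control replicate 2. Its difference was -0.27 ± 0.22. plin1, the coat protein of adipocytes in mammals, was at -0.07 ± 0.10, the fish-specific perilipin gene plin6 at 0.04 ± 0.11, and cideb, which acts in lipoprotein loading in mouse liver, at 0.03 ± 0.11. Of 10 measured adipocyte markers 2 were above 0 (56.9% of all genes), and 3 had both cadmium RNAs below both controls (10.2%), with a list median of -0.08. Of the 10, 1 had an unadjusted p under 0.05 in limma, the lipoprotein lipase gene lpla. It was at -0.41 ± 0.14, with ratios of -0.09, -0.42, -0.53 and -0.59 (unadjusted p = 0.0498). Of 13 leukocyte markers 0 were above 0, with a list median of -0.05, and 2 were below 0 on all 4 arrays (6.90% of all genes). The largest difference among them in size was that of lcp1, at -0.56 ± 0.25. The part of adipocyte or leukocyte RNA in the values of plin2 and the other droplet genes was not tested.

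Among the 5 genes of fatty acid synthesis, acaca was the 1 whose groups did not overlap (20%). Over all genes, both cadmium RNAs lay above both controls in 11.7% and below both in 10.2%. For acaca (Entrez Gene 559403), the carboxylase whose malonyl-CoA feeds synthesis, the ratios were 2.00, 1.51, 0.78 and 0.72. All 4 lay above 0, and both arrays of cadmium replicate 1 gave more than those of cadmium replicate 2. The log2 difference was 1.25 ± 0.38, a 2.38-fold higher value (unadjusted p = 0.0299, adjusted p = 0.9998 in limma), and it was 0.75 with cadmium replicate 2 alone and 1.75 with cadmium replicate 1 alone. The unadjusted p of acaca was 0.0611 with the arrays scaled to one spread, 0.0855 after quantile normalization, 0.141 without control replicate 2 and 0.101 without control replicate 3. In limma it was 0.00764 without the genes of lowest variance. With the arrays as units, which are not independent, it was 0.00293 without and 0.00967 with a dye term. acaca also has 1 probe. The gene of the other carboxylase, acacb, whose malonyl-CoA restrains fatty acid oxidation in mammals, was at -0.09 ± 0.13, with ratios between -0.31 and 0.09. The ATP citrate lyase gene aclya, which supplies acetyl-CoA, was at 0.09 ± 0.18. Its ratios were 0.35, 0.25, 0.09 and -0.35, so array 4 went against the other arrays. The fatty acid synthase gene fasn2 was at -0.08 ± 0.11 and me1, whose malic enzyme yields NADPH, at 0.05 ± 0.12.

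**Figure D2:**
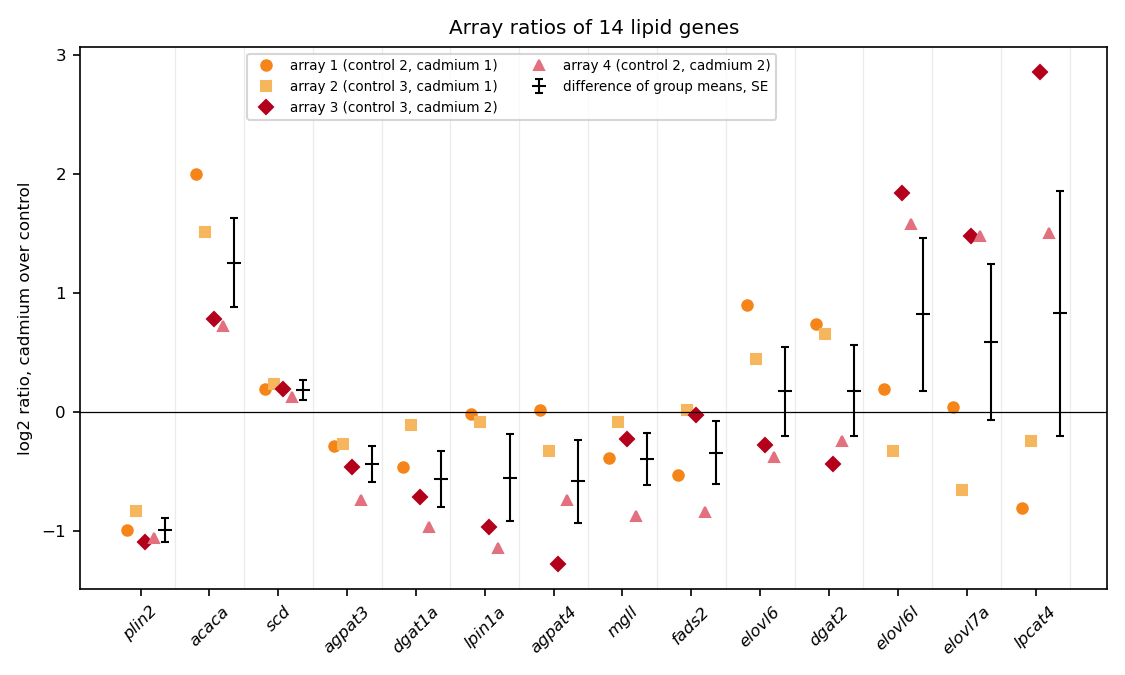
Log2 ratios of cadmium over control (vertical axis) on arrays 1 to 4 for 14 lipid genes, with the difference of the group means and its moderated SE (2 RNAs per group) in black. The 4 points of plin2 lie between -1.10 and -0.84 and those of scd between 0.13 and 0.24, whereas those of lpcat4 run from -0.81 to 2.86.

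The stearoyl-CoA desaturase gene scd, which makes oleate from stearate, was higher on all 4 arrays by a small amount, with ratios of 0.19, 0.24, 0.19 and 0.13. Its difference was 0.19 ± 0.08 (unadjusted p = 0.0960), from 2 probes at 0.29 and 0.08. The second desaturase gene, scdb, lay on the other side at -0.10 ± 0.08, with all 4 ratios between -0.15 and -0.05. For fads2, the desaturase of polyunsaturated fatty acid synthesis, the ratios were -0.53, 0.02, -0.02 and -0.84. Both values away from 0 came from arrays that carried control replicate 2, where the RNA-level value was 0.52 against -0.17 in control replicate 3. The difference of fads2 was -0.35 ± 0.26, and it was -0.0035 without control replicate 2. The 20 measured pancreas markers differed between the same control RNAs in the same direction, with medians of 0.70 in control replicate 2 and -0.86 in control replicate 3. They were highest in the former in 15 and lowest in the latter in 17. In cadmium replicates 1 and 2 their medians were 0.04 and 0.26. In these cadmium RNAs fads2 was at -0.09 and -0.26, and mgll at -0.04 and -0.35. The part of pancreas RNA in the values of fads2, or of mgll below, was not tested.

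The elongase genes showed several patterns. The gene elovl2, which extends long polyunsaturated chains, was at -0.35 ± 0.22, with ratios of -0.33, 0.09, -0.45 and -0.71, and elovl5, which acts on shorter polyunsaturated chains, was at -0.05 ± 0.18. For elovl6, which extends palmitate to stearate, the ratios were 0.90 and 0.45 with cadmium replicate 1 but -0.28 and -0.38 with cadmium replicate 2. The cadmium RNAs lay on opposite sides of both controls, and the difference of 0.17 ± 0.37 is a mean of unlike values. The opposite order was seen for elovl6l, with 0.19 and -0.33 on the arrays of cadmium replicate 1 and 1.84 and 1.58 on those of cadmium replicate 2. Likewise elovl7a had ratios of 0.04, -0.66, 1.47 and 1.48. In elovl6l and elovl7a, cadmium replicate 2 was far above the other RNAs, and the differences were 0.82 ± 0.64 and 0.58 ± 0.66. Without that RNA they were -0.07 and -0.31. The genes elovl1a (0.22 ± 0.28) and elovl4b (0.25 ± 0.24), both of elongases that make very long chains in mammals, were also highest in cadmium replicate 2. The remaining elongases, elovl1b, elovl4a, elovl8a and elovl8b, lay between -0.10 and 0.07, and fads6 was at -0.08 ± 0.32.

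In the assembly of triglyceride, 5 of 16 genes had both cadmium RNAs below both controls (10.2% of all genes), and 1 (agpat5) had both above (11.7%). For agpat3 (Entrez Gene 406734), an acyltransferase that forms phosphatidic acid, the ratios were -0.29, -0.27, -0.46 and -0.74. All 4 were below 0 and the groups did not overlap, with a difference of -0.44 ± 0.15 (unadjusted p = 0.0432, adjusted p = 0.9998 in limma) and probes at -0.55 and -0.33. For dgat1a (Entrez Gene 325875), one of the enzymes that add the last fatty acid, they were -0.47, -0.11, -0.71 and -0.97. These too were below 0 on every array, and the difference was -0.57 ± 0.24. Without cadmium replicate 2 the difference was -0.28 for agpat3 and -0.29 for dgat1a. The unadjusted p of agpat3 was 0.0552 without the genes of lowest variance, and between 0.0744 and 0.195 without cadmium replicate 2 or either control. It was 0.0377 in limma with the arrays scaled to one spread and 0.0182 after quantile normalization. With arrays as units, which are not independent, it was 0.00552 without and 0.0147 with a dye term. The paralogue dgat1b was at -0.21 ± 0.14, below both controls in both cadmium RNAs, although its ratio on array 1 was 0.05. The monoacylglycerol acyltransferase gene mogat3b was at -0.13 ± 0.09, with 4 ratios below 0, whereas mogat2 was at 0.14 ± 0.13.

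The phosphatidate phosphatase gene lpin1a (Entrez Gene 799099) had ratios of -0.02, -0.09, -0.97 and -1.14. All were below 0, but those with cadmium replicate 1 were near 0 and only cadmium replicate 2 lay far from the controls. The difference was -0.55 ± 0.37, and -0.05 without cadmium replicate 2. Its 2 probes disagreed on array 2, at -0.74 and 0.56. For agpat4 the ratios were 0.01, -0.33, -1.28 and -0.74, a difference of -0.59 ± 0.35 with overlapping groups, and of -0.16 without cadmium replicate 2. The gene dgat2, whose enzyme makes much of the triglyceride of mammalian liver from newly formed fatty acids, went like elovl6. Its ratios were 0.74, 0.66, -0.44 and -0.24, so cadmium replicate 1 was above both controls and cadmium replicate 2 below both, with the 3 probes alike and a difference of 0.18 ± 0.38.

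The genes of the entry step stayed closer to 0 or split by RNA. gpam, the mitochondrial glycerol-phosphate acyltransferase, was at 0.04 ± 0.08, gpat4 at 0.11 ± 0.17 and agpat9l at -0.02 ± 0.09. For gpat3 the ratios were 0.34, -0.13, -0.83 and -0.52, with the lowest value in cadmium replicate 2 and a difference of -0.29 ± 0.32, while gpat2 was highest in that RNA (0.21 ± 0.18). The remaining assembly genes, of later steps, were agpat5 (0.15 ± 0.09), agpat2 (-0.01 ± 0.13) and lpin2 (-0.04 ± 0.11), and agpat5 was above 0 on all 4 arrays. Of the 16 assembly genes 6 were above 0, or 37.5% beside 56.9% of all genes.

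The gene mgll and those of the patatin-like family lay near or below 0. The monoacylglycerol lipase gene mgll, which completes triglyceride breakdown, had ratios of -0.39, -0.09, -0.23 and -0.88. It was below 0 on all 4 arrays at -0.40 ± 0.22, and the value in control replicate 2 (0.44) was far above the other 3 RNAs, so that the difference was -0.16 without that RNA. Its probes were at -0.19 and -0.60. For pnpla3, a lipase whose variation is tied to fatty liver in people, the ratios were 0.18, -0.11, -0.74 and -0.47. The difference was -0.28 ± 0.26, and its probes were at -0.49 and -0.08. The genes pnpla4, pnpla7a, pnpla7b and pnpla8 lay between -0.14 and 0.07. The glucose-responsive factor gene mlxip, the 1 transcription factor gene among the members, was at -0.05 ± 0.09.

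Of the lysophosphatidylcholine acyltransferases, which reattach fatty acids to phospholipids, lpcat4 had the widest range of all 56 genes. Its ratios were -0.81, -0.24, 2.86 and 1.50, and its RNA-level value was 1.77 in cadmium replicate 2 against 0.07, -0.89 and -0.94 in control replicates 2 and 3 and cadmium replicate 1. The difference was 0.83 ± 1.03, and -0.52 without cadmium replicate 2. lpcat1 was highest in the same RNA (0.16 ± 0.26), and lpcat3 and lpcat2 were at 0.16 ± 0.13 and -0.07 ± 0.10.

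For many of the 56 genes the cadmium RNAs differed from each other. The cadmium RNAs were apart by at least 0.5 in 18 of the 56 genes (32.1%, beside 17% of all genes) and the control RNAs in 3 (5.36%, beside 3.09%). The 18 include gpatch1, gpatch8 and gpatch11, which are not lipid genes. In 40 genes the gap between the cadmium RNAs exceeded the gap between the group means (71.4%, beside 76.1% of all genes), and in 26 the cadmium RNAs lay on opposite sides of the control mean (46.4%, beside 55.1%). In this loop, array noise alone enters a gap within a group with more variance than a gap between groups. Cadmium replicate 2 held the lowest value of 30 genes (53.6%, beside 29.4% of all genes) and the highest of 15 (26.8%, beside 38.7%). Among the 52 genes without the G-patch genes, it held the lowest value of 28 and the highest of 13.

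Ovary and oocyte markers differed between the same RNAs. Of 25 measured, 24 were highest in cadmium replicate 2 and 23 lowest in cadmium replicate 1, with array medians of -0.20, -0.69, 1.43 and 1.60. Their RNA-level medians were -0.39, -0.13, -0.68 and 1.25 in control replicates 2 and 3 and cadmium replicates 1 and 2. The values of elovl6l in the same order were -0.48, -0.34, -0.48 and 1.30, and those of elovl7a were -0.47, -0.12, -0.60 and 1.19. Those of lpcat4 were 0.07, -0.89, -0.94 and 1.77, so control replicate 3 was about as low as cadmium replicate 1. Its controls differed in the same direction as the pancreas markers, with medians of 0.70 and -0.86 in control replicates 2 and 3. The part of pancreas RNA in the values of lpcat4 was not tested. The part of ovarian RNA in the values of elovl6l, elovl7a, lpcat4 and the other genes highest or lowest in cadmium replicate 2 was not tested. For plin2 the difference was -0.92 in cadmium replicate 1, where these markers were low, and -1.08 in cadmium replicate 2, where they were high. The part of ovarian RNA in these values of plin2 was not tested either. Red cell markers had medians between -0.17 and 0.21 on the 4 arrays and intestine markers between -0.42 and 0.72.

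**Figure D3:**
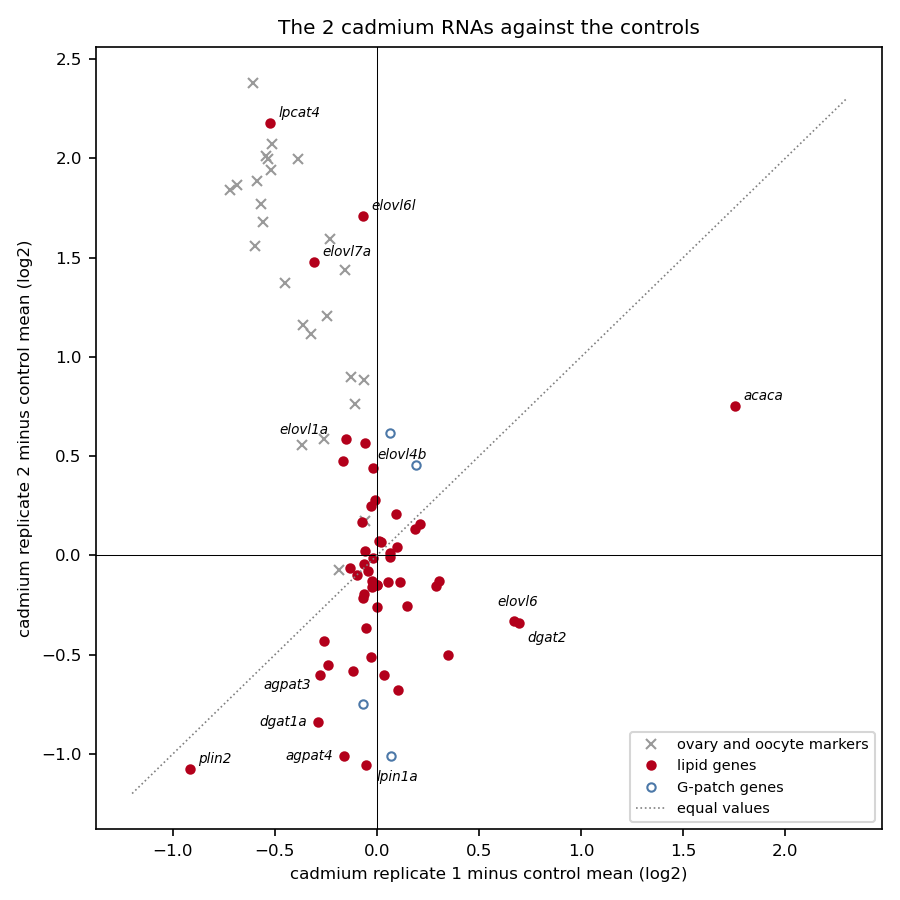
Value of cadmium replicate 2 against that of cadmium replicate 1, each as a log2 difference from the mean of both controls, for the lipid genes (filled), the G-patch genes (open circles) and 25 ovary and oocyte markers (crosses); the dotted line marks equal values. plin2 lies near the line at -0.92 and -1.08, acaca at 1.75 and 0.75, elovl6 and dgat2 lie below and right of 0, and lpcat4, elovl6l and elovl7a lie at the upper left with most of the crosses.

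RNA-level values were solved from all 4 arrays before an RNA was left out, so its arrays still entered the gap within the other group. The count of calls depended on cadmium replicate 1. Without it the treated side was cadmium replicate 2 only, a lone RNA taken to have the spread of the control group, and 11 of the 56 genes passed the adjusted threshold in limma. Of these, 5 were higher (6.88% of all genes) and 6 lower (2.48%). The higher ones were lpcat4 (2.18), elovl6l (1.71), elovl7a (1.48), acaca (0.75) and elovl1a (0.59). The lower ones were plin2 (-1.08), lpin1a (-1.06), agpat4 (-1.01), gpatch8 (-1.01), dgat1a (-0.84) and agpat3 (-0.60). Without cadmium replicate 2, 20 of the 56 had a sign opposite to that from all 4 RNAs. The share of all genes for this RNA alone is not given here. Leaving out any 1 RNA turned 55.4% of the 56 and 66.3% of all genes.

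**Figure D4:**
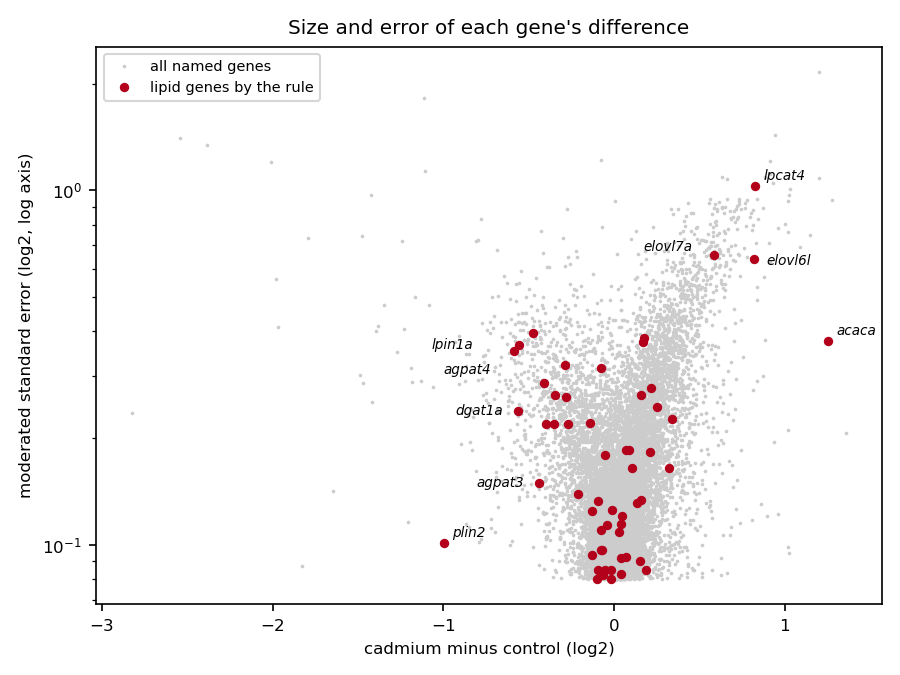
Log2 difference of cadmium minus control (horizontal axis) against its moderated standard error (vertical log axis) for the 15554 named genes (grey) and the 56 lipid genes by the rule (red). plin2 combines a difference of -0.997 with an error of 0.10, whereas lpcat4 at 0.83 has an error of 1.03.

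Genes around this pathway were counted in 5 lists with 109 measured genes, of which 0 passed the adjusted threshold. Over all genes 56.9% were above 0 and the median was 0.02. Of 15 genes that supply acetyl groups and NADPH, 10 (66.7%) were above 0, with a median of 0.13. The list medians were 0.02 and -0.08 on the arrays of cadmium replicate 1, but 0.20 and 0.21 on those of cadmium replicate 2. In 9 of the 15 the highest value was in cadmium replicate 2, beside 38.7% of all genes. The pentose phosphate gene pgd was at 0.49 ± 0.14, with ratios of 0.61, 0.18, 0.56 and 0.63, all above 0 (unadjusted p = 0.0251). In the same list acat2, a cytosolic thiolase gene, was at 0.67 ± 0.31 and oxsm, of mitochondrial fatty acid synthesis, at -0.36 ± 0.18. Of 32 lipogenic regulators 13 (40.6%) were above 0 and the median was -0.03. The AMP kinase subunit gene prkag2a was at -0.39 ± 0.11, with ratios of -0.26, -0.29, -0.53 and -0.47 (unadjusted p = 0.0290), and insig2, which holds SREBP factors in the endoplasmic reticulum, was at -0.21 ± 0.10. The SREBP protease gene mbtps1 was at 0.13 ± 0.09.

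Of 24 genes of phospholipid synthesis 14 (58.3%) were above 0, with a median of 0.03. Both the cardiolipin synthase gene crls1 and the choline kinase gene chka had their 4 ratios on one side. For crls1 these were 0.24, 0.59, 0.56 and 0.47, a difference of 0.46 ± 0.12 (unadjusted p = 0.0174). For chka they were -0.28, -0.31, -0.69 and -0.83, a difference of -0.53 ± 0.18 (unadjusted p = 0.0467) and -0.30 without cadmium replicate 2, and the phosphatidylserine synthase gene ptdss2 was at 0.23 ± 0.09. Among 30 genes of fatty acid activation and transport 15 (50%) were above 0, led in size of moderated t by slc27a2b (-0.27 ± 0.19), fabp7b (-0.11 ± 0.09) and fabp4a (-0.14 ± 0.14). Differences in this list ran from -1.11 to 0.413, and 1 of the 30 was at least 0.5 in size (3.33%, beside 3.26% of all genes). Among 8 lipolysis and droplet cofactors 4 (50%) were above 0, led by fitm1l (0.15 ± 0.10), aup1 (0.13 ± 0.12) and ces2a (0.15 ± 0.15).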

How the data were processed

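Each array's deposited column held a log2 ratio for each of 43603 probes, with 0 missing, and the submitters' processing notes name limma. The sources used here do not give the background correction, normalization, centring or direction of the ratio. Column medians were -7.46e-05, -0.000451, 0.000711 and 0.00373. Arrays of one dye orientation, which share no RNA, correlated at -0.0427 (1 and 3) and -0.221 (2 and 4). Turned to cadmium over control, arrays 1 and 2, which share cadmium replicate 1, correlated at 0.173. Arrays 3 and 4, which share cadmium replicate 2, correlated at 0.659.

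Probes of a gene were averaged within each array. The 4 ratios were solved for 4 RNA-level values and 1 dye effect. Cadmium and control RNAs (2 against 2) were compared in limma 3.58.1 (R 4.3.3) with lmFit and eBayes, two-sided, Benjamini-Hochberg over 15554 genes, threshold 0.05, with 2 residual and 1.91 prior degrees of freedom. The method was tested on simulated data. Of the 56 members, 56 matched the RefSeq gene table (GRCz12tu) by Entrez identifier.

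Members, marker lists and pathway lists were chosen with earlier results of these data known. Genes named were fixed enzymes of each role (acly was found as aclya, lpin1 as lpin1a; fasn2 and mogat3b were added), the 12 members with the largest moderated t, and the 3 leading genes of each pathway list. Every other member was named after its values were seen, as were the marker genes lpla and lcp1. The number of arrays limits the precision. Alternatives covered the unit of the fit, scaling, probe summary, filters and leaving out each RNA.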

Additional observations from a re-analysis of the deposited data

How the results depend on the processing

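With all 4 RNAs, 0 member genes had an adjusted p under 0.05 in limma under each alternative, and between 2 and 10 had an unadjusted p under 0.05, against 3 as reported. The 10 (17.9%, beside 7.13% of all genes) came with arrays as units and no dye term. There 2 genes passed the adjusted threshold, neither of them a member, and the smallest adjusted p of a member in limma was 0.064 (plin2). Leaving out 1 RNA at a time gave between 0 and 1456 genes and between 0 and 11 members, both highest without cadmium replicate 1, and a member median between -0.129 and -0.0135. The member median was 0.00929 after quantile normalization, -0.0222 after scaling and -0.0292 with the median over a gene's probes in place of the mean. Taken over the 89 member probes instead of genes, the median was -0.0158. Quantile normalization turned elovl5 (0.0351), agpat2 (0.0201) and fads6 (0.0585), and scaling turned fads6 (0.00421). Leaving out 1 RNA turned 31 of the 56 members (55.4%, beside 66.3% of all genes): acacb (-0.223 to 0.0396), aclya (-0.13 to 0.303), agpat2 (-0.136 to 0.112), agpat9l (-0.0596 to 0.0203), cideb (-0.0684 to 0.124), dgat2 (-0.342 to 0.698), elovl1a (-0.152 to 0.588), elovl4a (-0.0116 to 0.0939), elovl4b (-0.06 to 0.568), elovl5 (-0.253 to 0.147), elovl6 (-0.329 to 0.673), elovl6l (-0.0684 to 1.71), elovl7a (-0.31 to 1.48), elovl8b (-0.152 to 0.29), fads6 (-0.504 to 0.349), fasn2 (-0.169 to 0.0147), gpat2 (-0.0187 to 0.441), gpat3 (-0.678 to 0.105), gpat4 (-0.0389 to 0.254), gpatch8 (-1.01 to 0.0667), lpcat1 (-0.166 to 0.478), lpcat2 (-0.15 to 0.0019), lpcat4 (-0.524 to 2.18), lpin2 (-0.133 to 0.056), me1 (-0.0747 to 0.17), mogat2 (-0.00874 to 0.281), plin1 (-0.148 to 0.00221), plin6 (-0.0678 to 0.154), pnpla3 (-0.602 to 0.034), pnpla7b (-0.422 to 0.135) and pnpla8 (-0.263 to 0.00242). The cause was not tested. No paired analysis was possible because the groups share only 1 replicate number. The dye effect filter removed 0 members and the variance filter 6.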
